A study of Rattus norvegicus with 12 samples.

Results

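Genes that drive cells through DNA replication and division were described in epididymal adipose tissue of young male Sprague-Dawley rats aged 40 days. Cyclins switch on the cyclin-dependent kinases (CDKs), which phosphorylate the pocket proteins and so release the E2F transcription factors. E2F factors in turn raise transcription of the MCM helicase that opens DNA at replication origins, of PCNA, the sliding clamp of the polymerases, and of enzymes that supply nucleotides, and a later wave of genes builds the spindle and its checkpoint. Mature adipocytes do not divide, and dividing cells in adipose tissue are mostly precursor, endothelial and immune cells.

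The members were the probes whose gene symbol was a cyclin of type A, B, D or E, a numbered CDK, Mcm2 to Mcm7 or a numbered E2F, or was on a short list of replication and mitosis genes. They made up 45 of the 22523 probes on the array and stood for 42 of the 13337 genes named on it. One pair of these probes belonged to Ccnb1ip1, which shares the first letters of a cyclin symbol but is not a cyclin. Numbered CDKs were likewise taken by symbol, whatever their role in the cell. The array table used here named no probe for Mki67 and Top2a, proliferation markers in wide use, nor for Birc5, Rrm1, Ccnd3, Cdk2, Cdk7, E2f2, E2f4, E2f5, E2f6 and E2f8.

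RNA from 12 samples was hybridised to Illumina RatRef-12 arrays, 1 array per sample. From 6 samples food had been removed for 6 h by the labels (the study's text gives another time span), and the other 6 came from rats fed ad lib; no other treatment or genetic change is given. These are called arrays labelled fasted and arrays labelled ad lib, and replicate numbers are those of the labels. The methods give 6 rats in each group, the same number as arrays; p-values measure the spread between these samples. Chip position nearly coincided with the group: the fasted arrays lay at positions 1 and 3 to 7 and the ad lib arrays at 2 and 8 to 12. All differences below are means of arrays labelled fasted minus arrays labelled ad lib, on the log2 scale after background correction and quantile normalization. In that direction Pdk4 fell by 2.95 and Angptl4 fell by 2.08 (limma, adjusted p = 0.000236 and 0.00111). Both are opposite to the study's own array results, which place these genes among the strongest increases after food removal. The labels were kept as given. If they are crossed, every sign below is reversed.

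The raw median signal of an array was 91.1 to 139.6, and between 51.2% and 59.6% of probes were detected (detection p under 0.05). Each member probe was read from 24 to 89 beads per array. Of 9 adipocyte markers with a probe, 9 were detected on all 12 arrays. A probe was tested where it was detected on at least 6 arrays, which 12196 probes and 36 member probes of 34 genes did. Among the members, 33 probes were detected on all 12 arrays and 6 on none. The probes detected on no array were those of Cdk8, Cdk17, Cdk18, Ccnb3 and E2f7 and 1 probe of Ccnb1ip1. Ccna1, a cyclin best known from the germ line, was detected on 5 arrays and the other Ccnb1ip1 probe on 3. Ccnb1, the cyclin that pairs with CDK1 to start mitosis, was detected on 2 arrays, both labelled fasted, with log2 signals from 4.52 to 5.21 in that group and 4.58 to 5.06 in the other.

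One member passed the test and most of the others showed small differences. Ccnd1, the cyclin that carries growth signals into G1, was the only one of 36 tested member probes with an adjusted p under 0.05 (limma, Benjamini-Hochberg over all 12196 tested probes), and it was higher in the arrays labelled fasted. That is 2.78% of the members, against 2.47% of all tested probes (1.05% higher and 1.42% lower). At an unadjusted p under 0.05 there were 3 members, or 8.33%, against 15.9% of all tested probes. For none of the members were the values of the groups fully apart, which was so for 2.50% of all tested probes. The mean was higher in the arrays labelled fasted for 20 member probes and lower for 16. It was higher for 46.6% of all tested probes. The median difference was 0.04 for the members against -0.02 over all tested probes. The median size of the difference, without its sign, was 0.16 for the members and 0.16 for all tested probes. For 32 of the 34 tested genes the 95% interval of the difference lay between -1 and 1, and for 18 it lay between -0.5 and 0.5. The intervals of Ccnd1 and Cdc25b, a phosphatase that activates CDK1, reached further.

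**Figure D1:**
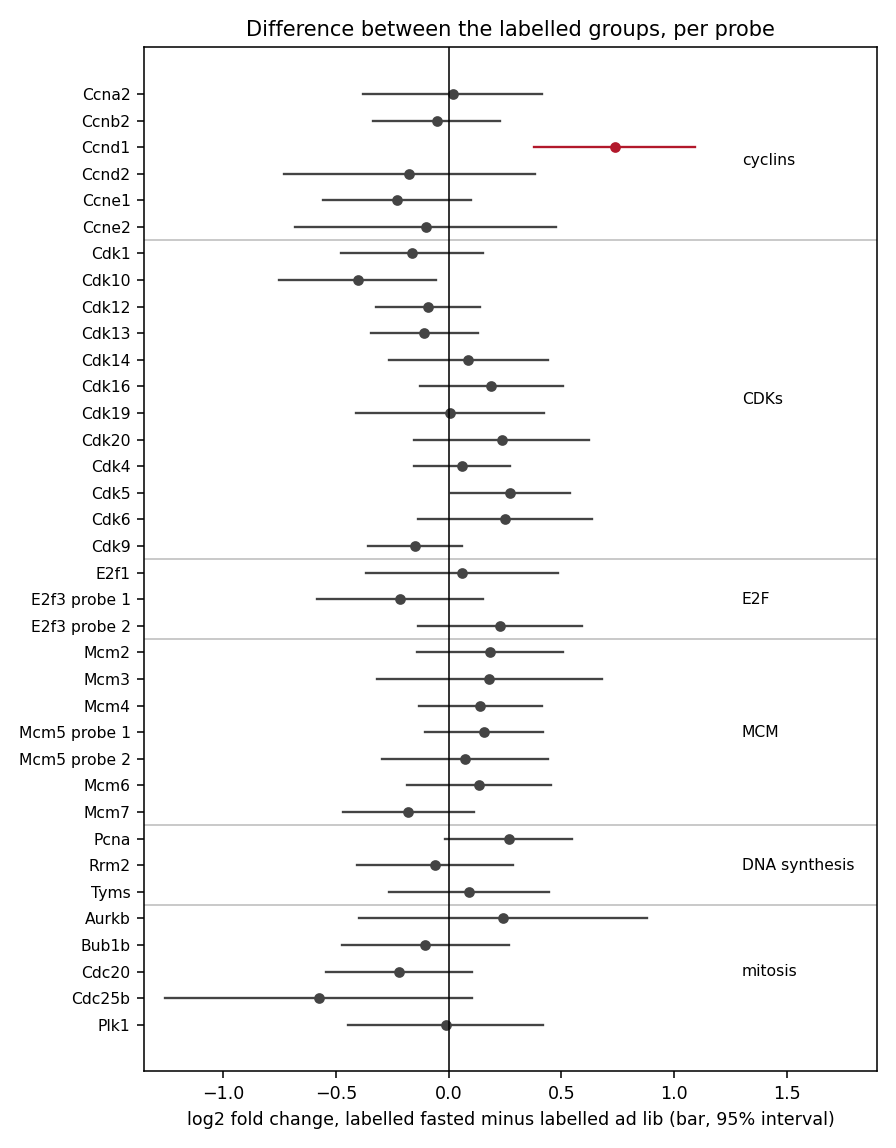
Difference between the arrays labelled fasted and those labelled ad lib for the 36 tested member probes, grouped by role; points are log2 fold changes and bars 95% intervals from limma with 6 arrays a group, and red marks an adjusted p under 0.05. The interval of Ccnd1 lies above 0 and most other intervals cross 0.

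The log2 signal of Ccnd1 was 11.09, 11.44, 11.36, 10.82, 11.59 and 11.45 on fasted arrays 1 to 6. On ad lib arrays 1 to 6 it was 10.65, 10.49, 10.71, 10.18, 10.26 and 11.03. All 6 fasted arrays lay above the ad lib mean, and the groups overlapped through fasted array 4 and ad lib array 6. The means were 11.29 ± 0.28 and 10.55 ± 0.31 (SD, n = 6), a difference of 0.74 ± 0.17 (SE, 95% interval 0.38 to 1.09) or 1.67-fold (limma, adjusted p = 0.0314). A two-sided exact permutation test over the 12 arrays gave p = 0.00433, where 0.00216 is the smallest that 6 against 6 can give. The difference stayed between 0.66 and 0.83 when each array was left out in turn, but the call was lost without fasted array 2, 3, 5 or 6 or ad lib array 1, 2, 4 or 5. It was also lost with chip position as a covariate (0.78, adjusted p = 0.244) and when arrays were scaled by their medians rather than quantiles (0.70, adjusted p = 0.199).

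The other cyclins did not pass the test. Ccnd2, which like Ccnd1 pairs with CDK4 and CDK6, differed by -0.18 ± 0.26 (SE, limma, adjusted p = 0.807). It ranged from 5.28 to 6.75 in the arrays labelled fasted (median 6.32) and from 5.41 to 6.74 in those labelled ad lib (median 6.57), the low arrays being fasted 3 and ad lib 3. Ccne1 and Ccne2, which pair with CDK2 at the entry to S phase, differed by -0.23 and -0.10. Ccne2 lay between 6.38 and 6.96 on the fasted arrays. On the ad lib arrays it lay between 6.81 and 7.53 except on array 6, where it was 5.48, below every other array. Ccna2, the cyclin of S phase and G2, had a median of 7.70 on fasted arrays (7.63 to 7.96) and 7.83 on ad lib arrays (7.15 to 8.32). Its group means differed by 0.02, and its SD was 0.13 in the arrays labelled fasted and 0.47 in those labelled ad lib. Ccnb2, a cyclin of mitosis, differed by -0.05 ± 0.13 (SE), with fasted arrays from 9.10 to 9.61 and ad lib arrays from 9.08 to 9.69.

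**Figure D2:**
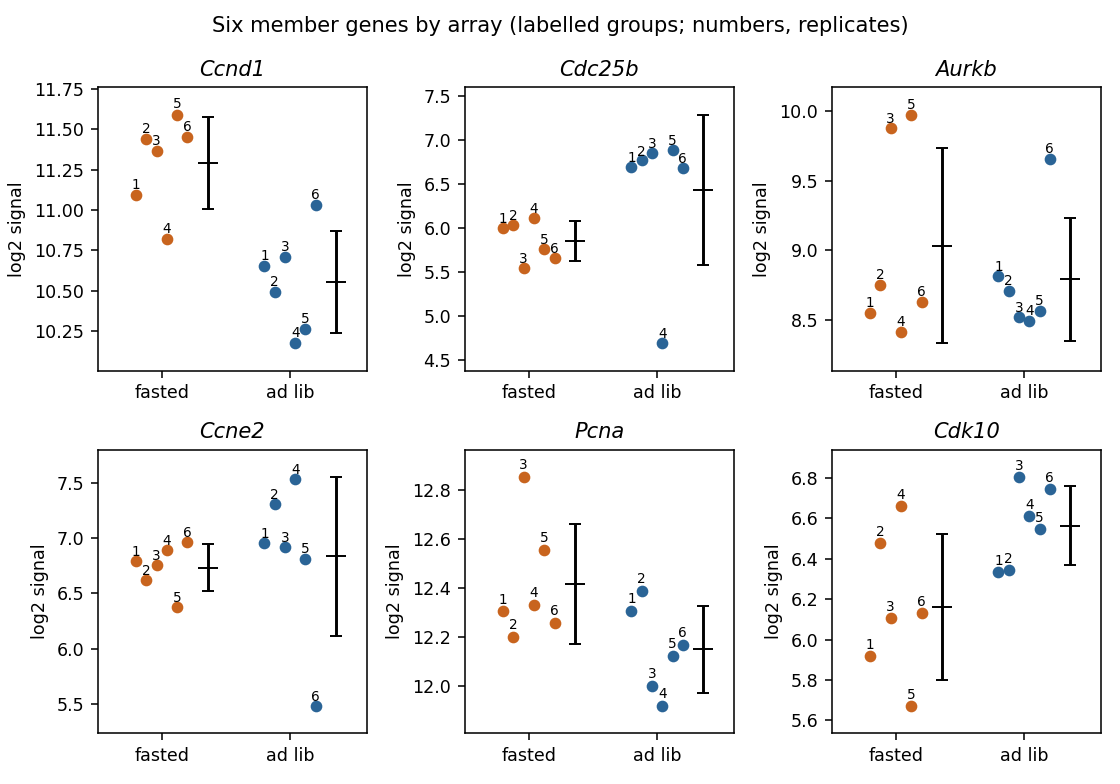
Log2 signal of 6 member genes on each array, by labelled group; points carry the replicate number and the bar is the mean ± SD (n = 6). Ccnd1 is higher in most arrays labelled fasted, while single arrays stand apart for Cdc25b (ad lib 4, 4.69) and Ccne2 (ad lib 6, 5.48), and 3 arrays are high for Aurkb.

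Of 12 tested CDKs, 7 had a higher and 5 a lower mean in the arrays labelled fasted, and none passed the test. The median difference was 0.03. Cdk1, the kinase of mitosis, differed by -0.16 ± 0.15 (SE, limma, adjusted p = 0.646), with a median of 9.38 on fasted arrays (8.95 to 9.78) and 9.55 on ad lib arrays (9.19 to 9.76). Cdk4 and Cdk6, the partners of the D cyclins, differed by 0.06 ± 0.10 and 0.25 ± 0.18 (SE). The CDKs with the smallest unadjusted p were Cdk10, Cdk5, Cdk9 and Cdk6. Cdk10, a partner of cyclin M, had a median of 6.12 on fasted arrays (5.67 to 6.66) and 6.58 on ad lib arrays (6.33 to 6.80), a difference of -0.40 ± 0.16 (SE, limma, adjusted p = 0.238). Cdk5, studied above all in neurons, had a median of 9.11 (8.92 to 9.45) against 8.93 (8.55 to 9.03), a difference of 0.27 ± 0.12 (SE, limma, adjusted p = 0.294). All 6 fasted arrays were above the ad lib mean for Cdk5, and the ranges overlapped. Cdk9, which frees paused RNA polymerase, differed by -0.15 ± 0.10 (SE). Among the rest, Cdk12, Cdk13, Cdk14, Cdk16, Cdk19 and Cdk20 differed by -0.11 to 0.24.

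The E2F factors were measured by few probes. E2f1, an activator of S-phase genes, differed by 0.06 ± 0.20 (SE). The 2 probes of E2f3 differed in sign, one at -0.22 ± 0.17 and the other at 0.23 ± 0.17 (SE), and the second was detected on 10 of 12 arrays.

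Among the 6 subunits of the MCM helicase, 5 had a higher mean in the arrays labelled fasted and none passed the test. The median difference was 0.15. Mcm2 differed by 0.18 ± 0.15, Mcm3 by 0.18 ± 0.23, Mcm4 by 0.14 ± 0.13, Mcm6 by 0.13 ± 0.15 and Mcm5 by 0.16 ± 0.12 and 0.07 ± 0.17 on its 2 probes (SE). Mcm7 had the opposite sign, at -0.18 ± 0.14 (SE, limma, adjusted p = 0.571). It lay between 8.18 and 8.71 on the fasted arrays (median 8.59) and between 8.52 and 9.13 on the ad lib arrays (median 8.61). Its medians were close, and ad lib arrays 3 and 6 were above all fasted arrays.

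Pcna had a median of 12.32 in the arrays labelled fasted (12.20 to 12.85) and 12.15 in those labelled ad lib (11.92 to 12.39). All 6 fasted arrays were above the ad lib mean, fasted arrays 3 and 5 most of all. The difference was 0.27 ± 0.13 (SE, limma, adjusted p = 0.341), and the exact permutation test gave p = 0.0541, two-sided. Tyms, which makes thymidylate, differed by 0.09 ± 0.17 (SE), and Rrm2, the small subunit of ribonucleotide reductase, by -0.06 ± 0.16 (SE).

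Of the 5 mitosis genes, 4 had a lower mean in the arrays labelled fasted, and none passed the test. Cdc25b was between 5.55 and 6.11 on the fasted arrays (median 5.88). It was between 6.68 and 6.89 on 5 ad lib arrays and 4.69 on ad lib array 4, where the probe was not detected. The fasted arrays were thus below every ad lib array but that one. The difference was -0.58 ± 0.32 (SE, limma, adjusted p = 0.400). Without ad lib array 4 it was -0.94 with an adjusted p of 0.00346 in limma, and with limma's array weights -0.76 (adjusted p = 0.0440). Without ad lib array 4, Cdc25b was the member that passed and Ccnd1 did not. Cdc20, which activates the ubiquitin ligase that ends metaphase, had a median of 7.49 on fasted arrays (7.32 to 7.83) and 7.77 on ad lib arrays (7.20 to 8.13), a difference of -0.22 ± 0.15 (SE). Bub1b of the spindle checkpoint differed by -0.10 ± 0.17 (SE) and Plk1, a kinase of mitotic entry, by -0.01 ± 0.20 (SE).

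Aurkb, the kinase that corrects chromosome attachment, did not follow the labelled groups. It was 9.88 on fasted array 3, 9.98 on fasted array 5 and 9.66 on ad lib array 6, and between 8.41 and 8.81 on the other 9 arrays. The difference between the groups was 0.24 ± 0.30 (SE, limma, adjusted p = 0.759). The same 3 arrays held the highest values of some markers of other cell types: 4 of 15 for epididymis, a tissue that borders this fat pad (Lcn5, Defb1, Spink8 and Aqp9), 5 of 12 for germ cells, 2 of 4 for mesothelium and 2 of 10 for lymphocytes. The rest of these markers did not have this order. Of the mesothelial markers, Krt8 and Krt19 had it, but Wt1 was lowest on these 3 arrays, at 7.18, 7.81 and 7.16. Msln was 10.16, 11.43 and 11.33 there, at or near its lowest, so the mesothelial list did not move as a whole. Gpx5, an enzyme of the epididymis, was 15.01 on fasted array 3 but 4.75 on fasted array 5 and 4.85 on ad lib array 6. Lcn5, an epididymal lipocalin, was 14.49, 11.17 and 11.15 there, 8.96 on fasted array 4 and 4.59 to 6.28 on the other 8 arrays. Defb1, a defensin of epithelia, was 10.85, 8.95 and 8.33 on the 3 arrays and 4.44 to 4.70 elsewhere. Krt8, a keratin of epithelia, was 12.71, 11.83 and 12.03, and Tnp1, a sperm chromatin protein, 9.95, 7.16 and 7.47. Cd8a, a marker of cytotoxic T cells, was 8.09, 8.19 and 8.11 there and at most 6.78 elsewhere. Cd3g and Cd3d, subunits of the T-cell receptor complex, did not go with it and were highest on fasted array 4, at 7.68 and 6.68; Cd3g was 5.53 on fasted array 5.

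Of 15 epididymis markers with a probe, 15 were detected on fasted array 3, 10 on fasted array 4 and 4 to 8 on each of the other arrays, with 6 each on fasted array 5 and ad lib array 6. Their summed level ran from 13.49 to 17.43 (log2) in the arrays labelled fasted and from 13.43 to 14.08 in those labelled ad lib. Of 12 germ cell markers, 10 were detected on fasted array 3, 6 on fasted array 5 and 7 on ad lib array 6, against 2 or 3 on the rest, and their summed level ran from 8.54 to 11.25 and from 8.46 to 9.47. Of 10 lymphocyte markers, 5 to 10 were detected on a fasted array and 4 to 9 on an ad lib array, with summed levels of 9.11 to 10.07 and 8.98 to 9.80. The part of these cells in the level of Aurkb was not tested. Without the 4 arrays with Lcn5 above 8, an alternative chosen after the data were seen, the Aurkb difference was 0.02, that of Pcna was 0.11, that of Ccnd1 was 0.88 (limma, adjusted p = 0.0167), and 1 member passed as before. In a bulk sample, fewer cells of a type and less RNA per cell cannot be told apart.

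**Figure D3:**
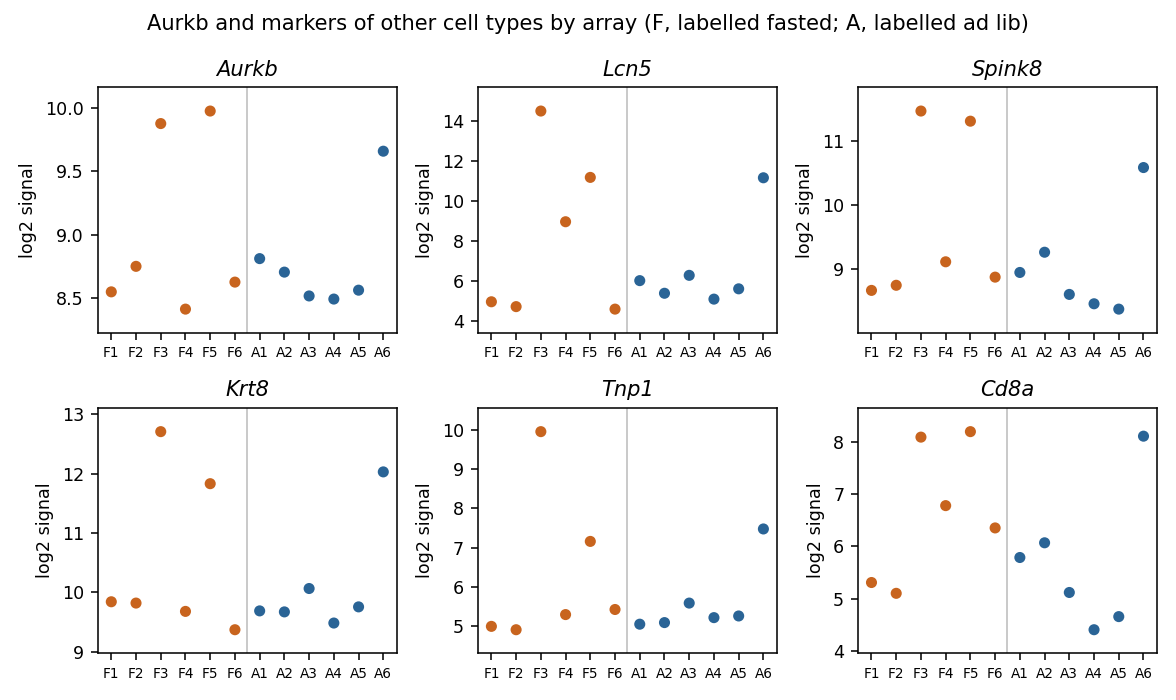
Log2 signal of Aurkb, of the epididymal markers Lcn5 and Spink8, of Krt8, of Tnp1 and of Cd8a on each of the 12 arrays (F, labelled fasted; A, labelled ad lib; 1 point per array). Fasted arrays 3 and 5 and ad lib array 6 are high in all 6 panels; Lcn5 is also high on fasted array 4.

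Across the tested members the arrays differed from each other within a group. Fasted array 3 held the highest value of 8 of the 34 genes and the lowest of 6. Ad lib array 4 held the lowest of 7 genes, and fasted array 4 and ad lib array 6 the lowest of 6 each. The median SE of a member's difference was 0.16, against 0.16 over all tested probes.

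**Figure D4:**
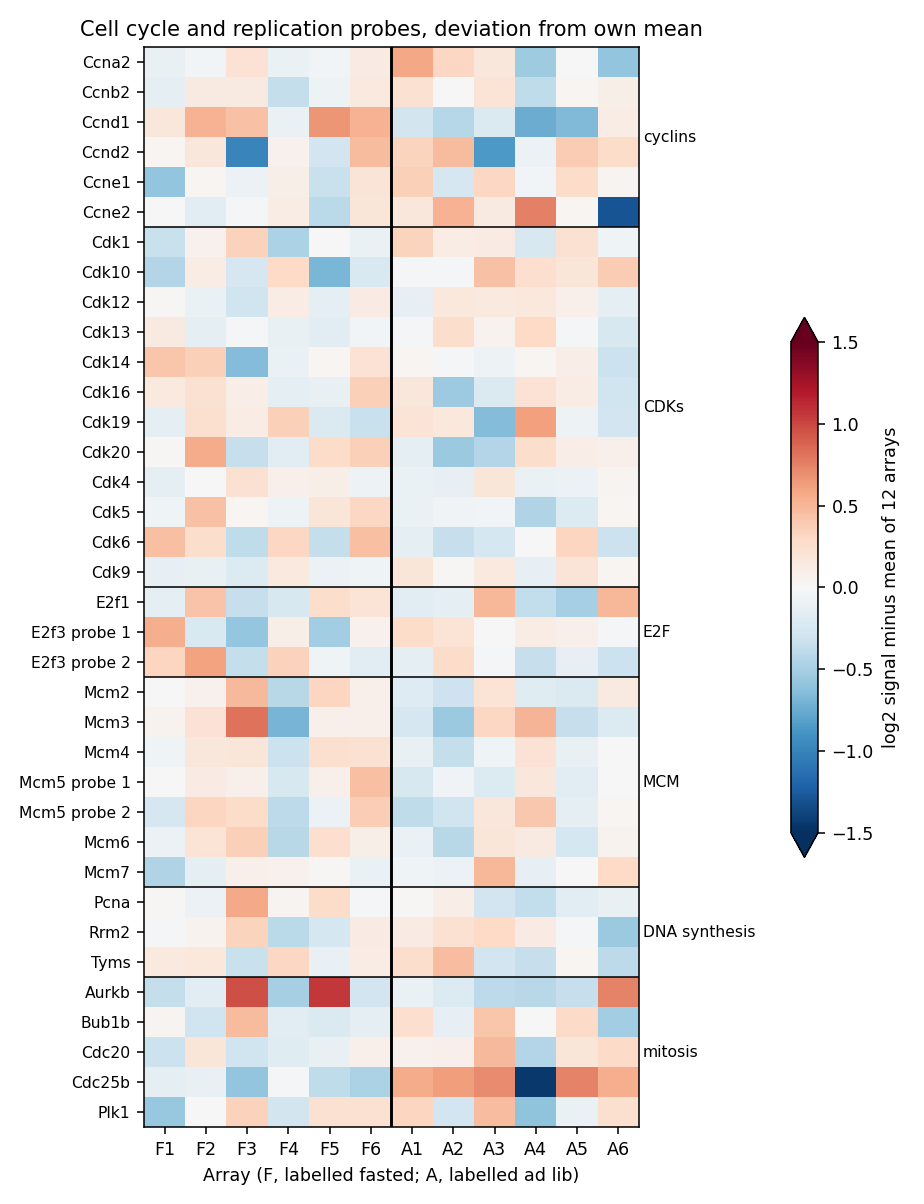
Deviation of each tested member probe from its own mean over the 12 arrays (log2 signal; colours stop at -1.5 and 1.5), with arrays in columns and probes in rows grouped by role. Only the Ccnd1 row divides the labelled groups to the point of passing the test, and single arrays stand apart for Ccne2 (ad lib 6), Cdc25b (ad lib 4) and Aurkb (fasted 3 and 5, ad lib 6).

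Stretches of promoter are shown for Cdc25b, Cdc20, Ccnb2 and Cdk1, genes of mitosis with lower means in the arrays labelled fasted, for a pair of MCM genes whose differences had opposite signs, and for Mcm10, a replication gene described next. They are the 150 bases before the RefSeq start of each gene on build GRCr8, written 5′ to 3′ along the gene. Capitals mark matches to 5 motifs on either strand: TTTGAA and TTCGAA, 2 forms of the cell cycle homology region through which the DREAM complex acts on mitotic genes; CCAAT, the box bound by NF-Y; and GCGCGAAA and GGCGGGAA, 2 forms of the E2F site.
Cdc25b, chr3:138860023-138860172, plus strand: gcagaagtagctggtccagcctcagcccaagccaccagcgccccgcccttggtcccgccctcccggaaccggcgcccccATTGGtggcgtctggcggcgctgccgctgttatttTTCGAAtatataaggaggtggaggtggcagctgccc
Cdc20, chr5:137255800-137255949, minus strand: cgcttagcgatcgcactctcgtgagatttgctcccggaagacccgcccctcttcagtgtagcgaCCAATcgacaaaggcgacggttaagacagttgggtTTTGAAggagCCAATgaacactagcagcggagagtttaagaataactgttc
Ccnb2, chr8:79981659-79981808, minus strand: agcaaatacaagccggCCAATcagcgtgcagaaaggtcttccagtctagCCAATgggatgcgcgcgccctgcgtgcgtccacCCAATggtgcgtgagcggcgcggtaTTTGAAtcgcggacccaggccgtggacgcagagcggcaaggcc
Cdk1, chr20:19265143-19265292, plus strand: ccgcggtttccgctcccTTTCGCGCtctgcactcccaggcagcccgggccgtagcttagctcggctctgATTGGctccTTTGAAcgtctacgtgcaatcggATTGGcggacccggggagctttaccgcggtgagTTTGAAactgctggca
Mcm6, chr13:42404353-42404502, minus strand: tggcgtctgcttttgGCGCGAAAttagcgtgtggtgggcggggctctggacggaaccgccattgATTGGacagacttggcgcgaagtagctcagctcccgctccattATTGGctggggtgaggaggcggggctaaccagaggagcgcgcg
Mcm7, chr12:22163179-22163328, minus strand: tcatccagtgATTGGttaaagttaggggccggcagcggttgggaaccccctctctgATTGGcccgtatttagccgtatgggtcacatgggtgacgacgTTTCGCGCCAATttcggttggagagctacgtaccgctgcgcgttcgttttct
Mcm10, chr17:78175237-78175386, plus strand: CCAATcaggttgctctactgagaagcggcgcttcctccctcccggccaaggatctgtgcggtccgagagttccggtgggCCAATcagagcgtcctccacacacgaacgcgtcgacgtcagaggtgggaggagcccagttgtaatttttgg
The search covered 300 bases per gene, 250 before and 50 after the start. TTCGAA is its own reverse complement, and in Mcm7 an E2F match overlaps a CCAAT match. RefSeq promoters were at hand for 23 of the 34 tested member genes. None was at hand for Ccnd1, the member that passed, nor for Aurkb, E2f1, Ccna2 and Mcm4 among others. GCGCGAAA was found in 6 of the 23, Cdk1, Mcm2, Mcm3, Mcm5, Mcm6 and Mcm7, or 26.1%, against 0.326% of 33469 rat promoters. Either form of the homology region was found in 9 (39.1% against 19.7%), among them Cdk1, Ccnb2, Cdc20, Cdc25b, Bub1b and Plk1. CCAAT was found in 14 (60.9% against 37.5%), and GGCGGGAA in 2, E2f3 and Mcm3 (8.7% against 1.91%). In Cdc25b the TTCGAA match began 36 bases and the CCAAT match 71 bases before the start. In Cdc20, Ccnb2 and Cdk1, TTTGAA matches lay 51, 43 and 72 bases before it, each downstream of a CCAAT match. Ccnb2 held another TTTGAA match farther from the start, upstream of all its CCAAT matches and outside the stretch shown. Cdk1 held another nearer the start, downstream of all its CCAAT matches. Mcm10 held a pair of CCAAT matches and none of the other motifs in the window. Mcm6 and Mcm7, which share the GCGCGAAA match, had differences of 0.13 and -0.18, neither past the test. These matches are a description of letters.

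Related genes outside the member rule were counted from lists. For comparison, 2.47% of all tested probes passed, 2.50% had groups without overlap and 46.6% had a higher mean in the arrays labelled fasted. Of 34 other replication genes tested, 1 passed, Mcm10, which fell; 15 had a higher and 19 a lower mean, with a median difference of -0.02. Mcm10 loads polymerase alpha at the opened origin. It lay between 6.39 and 7.07 on the fasted arrays (median 6.48) and between 7.11 and 7.69 on the ad lib arrays (median 7.38), with no overlap. The difference was -0.80 ± 0.14 (SE, limma, adjusted p = 0.00727), the opposite sign to 5 of the 6 MCM helicase subunits. The call held in all 12 fits that left out 1 array and was lost with median scaling (-0.75, adjusted p = 0.0790) and with chip position (-0.76, adjusted p = 0.154).

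Of 37 other mitotic genes tested, 1 passed, Pkmyt1, which fell. It had a median of 5.99 on fasted arrays (5.67 to 6.42) and 6.90 on ad lib arrays (6.37 to 7.32), which overlapped only through fasted array 2 and ad lib array 2. Pkmyt1 is a kinase that holds CDK1 inactive, the opposite of what Cdc25b does. Its difference was -0.84 ± 0.16 (SE, limma, adjusted p = 0.0145), a call lost with median scaling (-0.81, adjusted p = 0.0596), with chip position (-0.77, adjusted p = 0.242), with the replicate block (-0.84, adjusted p = 0.0592) and without the 4 arrays high in Lcn5 (-0.85, adjusted p = 0.0752). Over the list 8 genes had a higher and 29 a lower mean, with a median of -0.10. Of all tested probes, 46.6% had a higher mean.

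No gene passed among 18 other nucleotide synthesis genes (median 0.08) or 12 CDK inhibitors and pocket proteins (median -0.06). The nearest were Dhodh, a pyrimidine synthesis enzyme, at 0.38 ± 0.10 (SE, limma, adjusted p = 0.0577), and Shmt2, the mitochondrial serine hydroxymethyltransferase, at -0.45 ± 0.12 (SE, limma, adjusted p = 0.0772). Both had no overlap between the groups, as did Gmps of the nucleotide list, at -0.31 ± 0.10 (SE, limma, adjusted p = 0.135). Groups did not overlap for 2.50% of all tested probes. Among the partners of E2F, Tfdp2 differed by -0.43 ± 0.14 and Lin54, a DNA-binding part of DREAM, by -0.31 ± 0.13 (SE, limma, adjusted p = 0.125 and 0.270).

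A list of growth arrest genes, regulators beside the core cycle and cyclins outside the member rule had 22 tested genes. Of these, 1 rose and 1 fell, both of the Gadd45 family of stress proteins that can hold back CDK1. Gadd45a lay between 11.76 and 12.02 on the fasted arrays (median 11.89) and between 10.25 and 11.13 on the ad lib arrays (median 10.83). It was higher by 1.10 ± 0.14 (SE, limma, adjusted p = 0.00100). Gadd45g lay between 7.89 and 9.26 on the fasted arrays (median 8.43) and between 9.45 and 10.19 on the ad lib arrays (median 10.02). It fell by 1.495 ± 0.22 (SE, limma, adjusted p = 0.00309). Neither gene's groups overlapped, and both passed under all 24 alternatives tried. Of all tested probes, 2.47% passed and 2.50% had groups without overlap. The probe of Gadd45b differed by 0.08 ± 0.16 (SE).

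**Figure D5:**
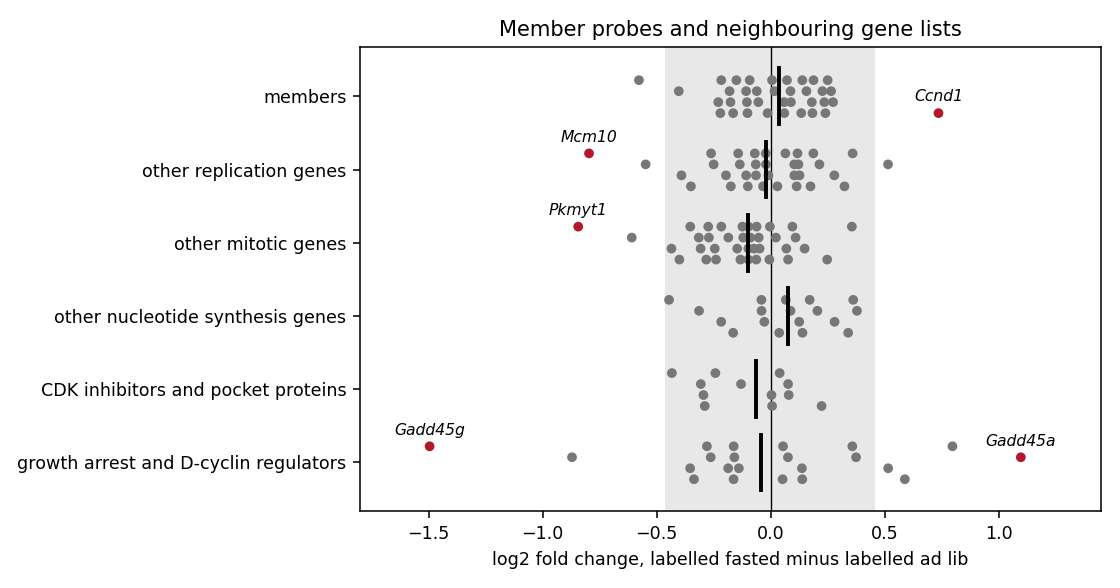
Log2 fold change (arrays labelled fasted minus arrays labelled ad lib) of each tested member probe and of each tested gene of 5 related lists; 1 point per probe or gene, black bars are medians, red marks an adjusted p under 0.05 and the grey band holds the middle of all tested probes, from the 5th percentile (-0.46) to the 95th (0.45). The medians lie between -0.10 and 0.08, and the red points are Ccnd1, Mcm10, Pkmyt1, Gadd45g and Gadd45a.

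Markers of the cell types a piece of this fat pad could hold were set beside these values. Over all tested probes 46.6% had a higher mean in the arrays labelled fasted and 2.47% passed the test. Of 8 endothelial markers, 7 had a lower mean in the arrays labelled fasted (median -0.35), with summed levels of 12.05 to 13.24 against 13.10 to 13.64. Cldn5, of endothelial junctions, differed by -0.88 ± 0.22 (SE, limma, adjusted p = 0.0482), a call kept in 2 of 12 fits that left out 1 array, those without fasted array 4 and without ad lib array 3. That call was also lost with median scaling (adjusted p = 0.199), the authors' normalized values (0.0565), no filter on dim probes (0.0935), the methods' t-test (0.103) and chip position (-0.72, 0.461). The endothelial median was -0.21 without fasted array 3. The tests also covered 9 preadipocyte and fibroblast, 7 macrophage, 8 lymphocyte, 6 erythroid and 4 mesothelial markers. In that order, 7, 2, 6, 1 and 2 of them had a higher mean in the arrays labelled fasted. None of these markers passed, with medians in the same order of 0.12, -0.09, 0.09, -0.06 and 0.15. Nor did any of 6 epididymis or 3 germ cell markers, with medians of 1.07 and 0.25, which were 0.22 and -0.04 without fasted array 3. Of 9 adipocyte markers only Lep passed, at 1.55 ± 0.33 (SE, limma, adjusted p = 0.0255), a call lost without fasted array 1, 2, 5 or 6 or ad lib array 5, and with no filter (0.0592), the methods' t-test (0.0794) and chip position (1.25, 0.381). The part of cell makeup in the values of the cell cycle genes was not tested.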

How the data were processed

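The authors hybridised biotin-labelled cRNA made with the Illumina TotalPrep kit to RatRef-12 arrays and scanned them. They deposited raw probe intensity with a detection p-value and bead number per array, and intensity normalized by the cubic spline of their software; GenomeStudio is named in the submitters' processing notes. The raw intensity was background-corrected and quantile-normalized here by limma's neqc function (limma 3.58.1, R 4.3.3, an offset of 16), with the negative control signal inferred from detection p-values, then put on the log2 scale. Probes detected at p under 0.05 on at least 6 of 12 arrays (12196 of 22523) entered a two-sided limma test (lmFit, eBayes). P-values were adjusted by Benjamini-Hochberg over all of them, with a threshold of 0.05. Single values were tested by exact permutation in scipy 1.17.1. Genes came from a platform annotation: 13793 probes had 1 symbol, 8730 had none and none had several. A gene was represented by its brightest tested probe in counts over genes. The precision of a value is limited by 6 arrays a group.

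Named members were those passing the test, the 4 with the smallest p in each role, the main cyclins, Cdk1 and Pcna. Members with an array that stands apart were also named. Of each list of related genes, those that passed or the 2 with the smallest p were named. Of the cell type marker lists, only genes that passed were named by this rule, and the smallest p of the others are not shown. Other members are named to account for all of them, and Gmps because its groups did not overlap. Some markers are named because their values go with or against those of Aurkb. The members and lists were chosen with earlier results of these data known. Alternatives were background correction, normalization, offset, filter, variance model, array weights, test, replicate block, chip position and each array left out. The procedure was tested on simulated data in which each probe varied independently. Those data held no outlying array and no effect of chip position, so that test does not bear on such features.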

Additional observations from a re-analysis of the deposited data

Results flagged for a closer look

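Among 68 sets of 6 arrays, 1 per tested member gene and labelled group, 3 held an array set apart from the others in its group. The rule for this marks about 1 set in 20 by chance, or 3.4 of 68, and the number found is no more than that. The sets share arrays and are not independent, so the count does not tell whether a given value arose by chance. Aurkb was 9.66 on ad lib array 6, with 8.81 the next highest ad lib array. Ccne2 was 5.48 on the same array, with 6.81 the next lowest. Cdc25b was 4.69 on ad lib array 4, with 6.68 the next lowest.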

How the results depend on the processing

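The count of members called was 1, and it became 0 with a median shift, with no filter on dim probes, with the methods' t-test, with the replicate block, with chip position and at an adjusted p under 0.01, and 2 with array weights, where Cdc25b joined Ccnd1. It ranged from 0 to 1 with each array left out, and without ad lib replicate 4 the member called was Cdc25b. The adjusted p of Ccnd1 in limma ran from 0.00407 with array weights to 0.244 with chip position, and was 0.0540 without the filter, 0.0503 with the replicate block and 0.0684 by the methods' t-test. Over all probes 301 calls became 103 with a median shift, 840 with array weights, 178 with the replicate block and 32 with chip position, and 157 to 488 with each array left out. The lowest count was without ad lib replicate 5 and the highest without food removed replicate 4; it was 185, 181, 187 and 186 without food removed replicates 1, 2, 5 and 6. With a median shift 52.4% of calls were higher, against 42.5%. The cause of these changes was not tested. Replicate numbers did not pair the samples: same-numbered arrays had correlations of deviations from -0.41 to 0.13.

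Differences near 0 changed sign. With chip position Cdk14 was -0.0155, Cdk19 -0.14, Ccna2 -0.29, Tyms -0.12 and Plk1 0.0135. With array weights Cdk19 was -0.0679 and Ccna2 -0.17. With no background correction Cdk19 was -0.0050 and Ccna2 -0.0001, with an offset of 50 Cdk19 was -0.0027, and with a median shift Ccna2 was -0.0014. Without the 4 arrays high in Lcn5 Cdk19 was -0.13, Cdk4 -0.0275, Ccna2 -0.12, Ccnb2 0.0317 and Ccnd2 0.17. With each array left out Cdk19 ran from -0.12 to 0.13, Ccna2 from -0.10 to 0.13, Ccnb2 from -0.14 to 0.0123, Ccnd2 from -0.37 to 0.0038, Ccne2 from -0.37 to 0.0403, Rrm2 from -0.18 to 0.0150, E2f1 from -0.0339 to 0.16 and Plk1 from -0.14 to 0.10. Cdk20, Cdc25b and 1 probe of E2f3 have no value where detection on all 12 arrays was required.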
